A study of Mus musculus with 12 samples.

Results

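Cd34 and Cd164, which encode sialomucins, and Selp, which encodes P-selectin, were followed in mouse pancreatic stellate cells (PSCs) of both PKN2 genotypes, with and without TGF-β1. They are 3 of the 420 genes on a targeted RNA panel for extracellular matrix and cell adhesion genes. The 3 genes were chosen by name from the rows of the normalized count tables with the values of these 4 groups already known, so their levels and fold changes are given as a description and without p-values. There were 12 libraries, 3 in each group and lettered A, B and C: WT vehicle, PKN2 KO vehicle, WT with 5 ng/ml TGF-β1 and PKN2 KO with 5 ng/ml TGF-β1, all harvested after 72 h. All cells are C57BL/6 and, by the study's methods, were immortalized with SV40 large T antigen and come from the pancreas of a single mouse that carried floxed PKN2 alleles and Rosa26CreERT2, a Cre recombinase that works only after hydroxytamoxifen. The KO was made in culture by a short exposure to hydroxytamoxifen, so WT and PKN2 KO PSCs share this origin and these alleles. The methods describe this exposure for the KO only. Its effects and those of active Cre thus cannot be told apart from the loss of PKN2 here. The methods speak of biological replicates for culture experiments and of several dishes for each condition, but not of what a letter stands for. The submitters' description of the series speaks of 3 KO and 3 WT cell lines, which the methods do not mention. The p-values thus measure the spread between these libraries, of cells that by the methods come from a single mouse. Pkn2 is not on the panel, and the deletion could not be checked here.

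Sialomucins are membrane proteins whose long extracellular stems carry many O-linked, sialic acid-capped sugars. CD34 marks hematopoietic progenitors, small-vessel endothelium and many resting tissue fibroblasts. CD164, also called endolyn, lies mostly in endosomes and lysosomes and takes part in the adhesion and migration of hematopoietic progenitors. P-selectin is a lectin that endothelial cells and platelets store in granules and bring to the surface on activation, where it captures leukocytes through the mucin PSGL-1, the product of Selplg. PSCs are the fibroblast-like cells of the pancreas, and TGF-β1, which signals through Smad transcription factors, turns them into matrix-producing myofibroblasts.

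Cd34 (ENSMUSG00000016494) spans chromosome 1, 194938819 to 194961279, on the plus strand of GRCm38. Selp (ENSMUSG00000026580) lies on the same strand of chromosome 1, 164115264 to 164150026, and Cd164 (ENSMUSG00000019818) on the plus strand of chromosome 10, 41519414 to 41531048. The RefSeq promoters of Cd34 and Selp (GRCm38.p6) are shown because the mRNAs of these 2 genes moved in opposite directions with TGF-β1. Each line runs 5′ to 3′ on the plus strand, from 250 to 11 bases before the RefSeq start. Capitals mark the Smad box CAGAC or its reverse complement GTCTG.
Cd34, chr1:194938571-194938810: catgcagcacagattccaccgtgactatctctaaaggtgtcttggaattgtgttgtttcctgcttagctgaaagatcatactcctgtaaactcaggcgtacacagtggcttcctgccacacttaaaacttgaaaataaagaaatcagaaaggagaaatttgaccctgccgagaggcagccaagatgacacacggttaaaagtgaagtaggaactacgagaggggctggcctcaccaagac
Selp, chr1:164115014-164115253: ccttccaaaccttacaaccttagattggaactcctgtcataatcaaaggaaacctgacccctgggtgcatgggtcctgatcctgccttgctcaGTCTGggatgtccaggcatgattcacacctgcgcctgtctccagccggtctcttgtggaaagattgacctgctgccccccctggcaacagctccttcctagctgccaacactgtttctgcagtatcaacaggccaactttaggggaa
The Selp window held 1 Smad box and the Cd34 window none, over the 250 bases before the start and on both strands. Of 32851 mouse promoters in the same table, 42.2% held at least 1 Smad box in the same window. The TEAD motif GGAATG, or CATTCC on the other strand, was also looked for, since YAP acts with TEAD factors, and was in neither window, against 12.6% of all promoters. The 250 bases before the start of Cd164 held neither motif. These are matches of letters, and no binding was measured.

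The panel reads per library ranged from 1074095 to 1473153, and the level of a gene is given as the authors' normalized count, the reads divided by a factor for each library that comes from reference genes. Levels are compared between groups and not between genes, since an amplicon panel gives no scale per length. Cd164 reached a normalized count of 10 in all 12 libraries. Cd34 passed the filter on low values, 10 in at least 3 libraries, through vehicle libraries, and Selp through libraries with TGF-β1, and neither would have been tested on the libraries of its low treatment alone. The labelled cell type was checked against 8 fibroblast markers. Of these, Col1a1, a chain of type I collagen, had a median of 184760 normalized counts over the 12 libraries and Sparc, a collagen-binding matrix protein, one of 103420. The small proteoglycans Dcn and Lum were low, with medians of 5.48 and 0.

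**Figure D1:**
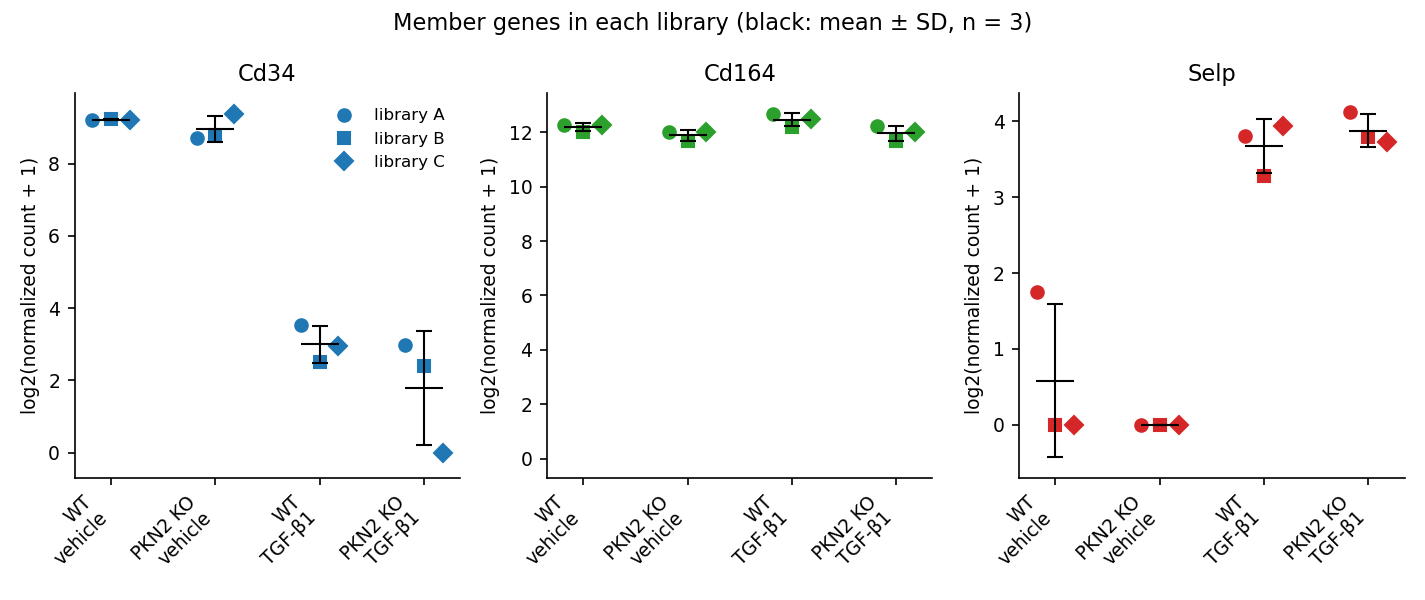
Level of Cd34, Cd164 and Selp in each of the 12 libraries, as log2(normalized count + 1) by group. Each symbol is 1 library and black bars are the mean ± SD (n = 3); Cd34 was low and Selp was present in the libraries with TGF-β1, while Cd164 stayed between 11.7 and 12.7.

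Cd34, the sialomucin of progenitors and resting fibroblasts, was close to lost after TGF-β1 in both genotypes. In WT vehicle, libraries A, B and C had 595, 599 and 597 normalized counts. In WT with TGF-β1 they had 10.6, 4.74 and 6.73. The 2 WT groups lay far apart, and every library with TGF-β1 was below every vehicle library. In PKN2 KO vehicle, Cd34 was at 420, 442 and 668 normalized counts. With TGF-β1 the PKN2 KO libraries had 6.84, 4.30 and 0. Again the groups did not overlap, and library C had no Cd34 read among 1136021 panel reads, which allows a normalized count of up to 3.66. The mean in WT fell from 597 ± 1.94 to 7.36 ± 2.99 (SD, n = 3), an 81.0-fold lower level. In PKN2 KO it fell from 510 ± 137 to 3.71 ± 3.46, a 137-fold lower level.

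These folds rest on few reads in the treated cells. The 3 WT libraries with TGF-β1 held 22 Cd34 reads in all against 1995 in vehicle, and the pooled reads gave an 85.6-fold lower level with a 95% exact interval of 56.4 to 137. The 3 PKN2 KO libraries held 10 against 1614, a 136-fold lower level with an interval of 73.9 to 285. Both intervals cover counting error only, and they overlap. On the log2(normalized count + 1) scale, the log2 fold change of Cd34 was -6.22 ± 0.58 (SE) in WT and -7.17 ± 0.58 in PKN2 KO. These values depend on the pseudocount and are no bound. With pseudocounts of 5 and 0.5 they ran from -5.63 to -6.32 in WT and from -5.94 to -7.58 in PKN2 KO. Without PKN2 KO TGF-β1 library C, which had no Cd34 read, the PKN2 KO value was -6.28. Among the 238 genes tested, Cd34 had the second lowest log2 fold change in both genotypes, after Efemp1, a fibulin of elastic matrix. In WT it was ahead of Tnxb, a tenascin (-6.20 ± 0.47), by far less than the SE, so that this order is not resolved. In PKN2 KO, Cd34 and Efemp1 (-7.22 ± 0.23) also differed by less than the SE of either, and their order there is not resolved.

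Between genotypes, the normalized counts of Cd34 overlapped in both treatments. In vehicle the PKN2 KO libraries ranged from 420 to 668 and enclosed the WT values, with a log2 difference of -0.26 ± 0.58 (SE). The closeness of the WT vehicle libraries, a CV of 0.326%, is smaller than the 3.88% that counting alone gives at their mean number of reads, and the same libraries spread from 469 to 601 reads per 1000000 panel reads (RPM). With TGF-β1 the difference was -1.21 ± 0.58, and the groups overlapped in normalized counts. That value came largely from PKN2 KO library C, and without it the difference was -0.32. Without library A in its place the difference was -1.80, and Cd34 was then called lower. As RPM the groups with TGF-β1 did not overlap, at 4.38 to 6.65 in WT and 0 to 4.15 in PKN2 KO. On that scale 40.8% of the genes tested did not overlap, and no library with TGF-β1 held more than 9 Cd34 reads. The difference between the TGF-β1 responses of PKN2 KO and WT (the interaction) was -0.95 ± 0.82, or -0.06 without PKN2 KO library C.

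Selp, the granule-stored selectin of endothelium and platelets, was at or near 0 in vehicle and present at a low level with TGF-β1. In WT vehicle, library A held 2 Selp reads, a normalized count of 2.36, and libraries B and C none. With TGF-β1 the WT libraries had 11, 11 and 15 reads, or 13.0, 8.69 and 14.4 normalized counts. All WT libraries with TGF-β1 were above all WT vehicle libraries. No PKN2 KO vehicle library held a Selp read among 3709583 panel reads, which allows normalized counts of up to 3.52, 2.12 and 3.18 in libraries A, B and C. With TGF-β1 the PKN2 KO libraries had 12, 15 and 10 reads, or 16.4, 12.9 and 12.2 normalized counts. These were also above every vehicle library.

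In WT the pooled reads rose from 2 to 37, a ratio of 19.6 with a 95% exact interval of 5.06 to 168. In PKN2 KO the mean with TGF-β1 was 13.8 ± 2.26 (SD, n = 3), at least 4.71-fold higher than the vehicle libraries if each is set to the limit of 3 reads that a count of 0 allows. Computed as in WT, from 37 pooled reads against 0, the lower end of the exact interval was 11.3. The fitted log2 fold changes were 3.09 ± 0.53 (SE) in WT and 3.88 ± 0.53 in PKN2 KO. These depend on the pseudocount and are no bound, and with pseudocounts of 5 and 0.5 they ran from 1.57 to 3.78 in WT and from 1.91 to 4.83 in PKN2 KO. With TGF-β1 the genotypes overlapped, at 12.0 ± 2.98 in WT and 13.8 ± 2.26 in PKN2 KO. The pooled reads gave a ratio of 1.16 of PKN2 KO to WT, with an interval of 0.717 to 1.88. The interaction was 0.79 ± 0.75.

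Some endothelial markers moved with Selp. The summed normalized level of 9 such markers was 10.6 to 19.6 in WT vehicle and 33.6 to 39.5 in WT with TGF-β1. In PKN2 KO it was 14.8 to 24.7 in vehicle and 20.5 to 24.1 with TGF-β1, so the ranges overlapped there. The list was split. Over the 3 libraries of a group, Cd93 went from 6 reads in vehicle to 49 with TGF-β1 in WT and from 4 to 16 in PKN2 KO. Pecam1 went from 9 to 23 reads and from 12 to 27. The reads of Mmrn2 were 31 and 29 in WT, and 38 and 13 in PKN2 KO. Icam2, Stab1, Lyve1 and Clec1a had at most 6 reads in any group. Among these markers Sele, or E-selectin, had no read in any library. Cdh5, the cadherin of endothelial junctions, had 12 reads over the 3 WT libraries with TGF-β1 and none elsewhere. Of the 2 platelet markers, Mmrn1 was at 0 in all libraries and Itga2b went down with TGF-β1, the opposite way to Selp. Over 10 leukocyte markers the summed level was 16.3 to 33.9 in vehicle and 5.77 to 13.4 with TGF-β1. In vehicle and in WT with TGF-β1 nearly all of it was Itgb2, the 1 marker of these that reached a normalized count of 10. The PKN2 KO libraries with TGF-β1 held 16 reads of Itgb2, 6 of Clec7a, 2 of Itgax and 1 of Siglec1. Among the leukocyte markers Itgal, Cd84 and Clec4e had no read. The 5 epithelial markers summed to 11.7 to 25.4 in vehicle and 2.44 to 23.3 with TGF-β1. The part of other cells in these levels was not tested, and in bulk RNA fewer cells of a type and less RNA per cell cannot be told apart.

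Cd164, the endosomal sialomucin, overlapped between vehicle and TGF-β1 and was lower in PKN2 KO than in WT by a margin whose call depends on the scaling and on the model fitted. In WT vehicle its normalized counts were 4963, 4165 and 4907 in libraries A, B and C. In PKN2 KO vehicle they were 4079, 3248 and 4166. The groups overlapped by 1 library on each side, and B was the lowest library of both. With TGF-β1 the WT libraries had 6488, 4691 and 5798 normalized counts. The PKN2 KO libraries had 4756, 3244 and 4121. Here too the highest PKN2 KO library passed the lowest WT library, and B was lowest in both. The log2 difference between PKN2 KO and WT was -0.29 ± 0.20 (SE) in vehicle and -0.49 ± 0.20 with TGF-β1.

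Taken as RPM, the same Cd164 reads did not overlap between genotypes. WT vehicle libraries ran from 3916 to 4299 and PKN2 KO vehicle libraries from 3065 to 3442. With TGF-β1, WT libraries ran from 4060 to 4336 and PKN2 KO libraries from 2764 to 3127. Library B, the lowest of each group in normalized counts, was the highest as RPM in every group but WT vehicle. On this scale 35.7% of the genes tested did not overlap between genotypes in vehicle and 40.8% with TGF-β1. The difference in Cd164 was -0.48 ± 0.12 in vehicle and -0.60 ± 0.12 with TGF-β1 after TMM scaling (edgeR's trimmed mean of ratios). With DESeq2's median of ratios it was -0.53 ± 0.12 and -0.62 ± 0.12, and with the total panel count -0.36 ± 0.08 and -0.50 ± 0.08. The direction was the same under all 4 scalings, and the SE was largest with the authors' factors. The scalings also moved the panel as a whole. With the authors' factors the median log2 difference of all genes tested was 0.21 in vehicle and 0.13 with TGF-β1. It was 0.03 and 0.02 with TMM, -0.02 and 0.01 with median of ratios, and 0.15 and 0.12 with the total count.

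**Figure D2:**
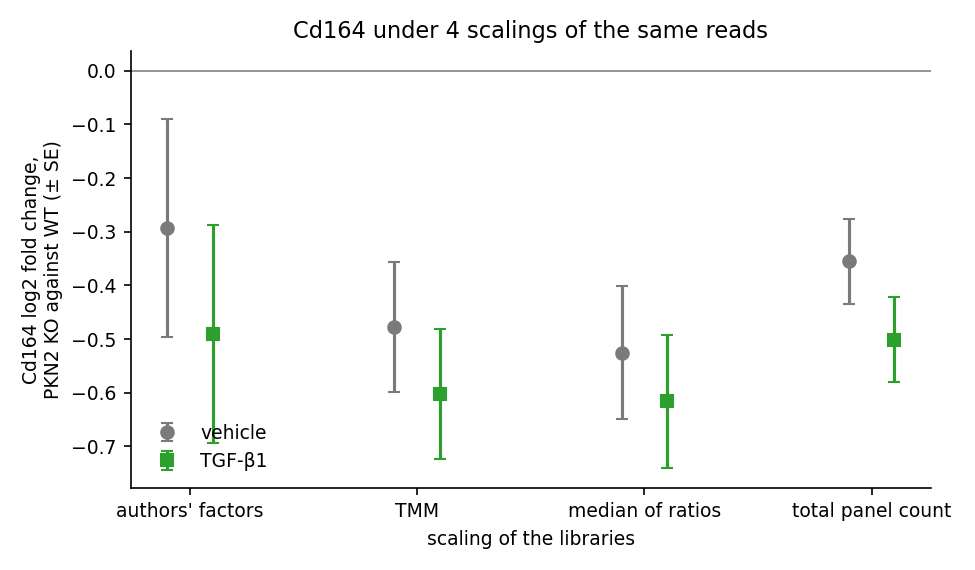
Cd164 log2 difference between PKN2 KO and WT (± SE) in vehicle and with TGF-β1, with the libraries scaled by the authors' factors, TMM, median of ratios or the total panel count. All 8 values lie below 0, from -0.29 to -0.62, and the bars are shortest with the total count.

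With TGF-β1, Cd164 differed from vehicle by 0.27 ± 0.20 (SE) in WT and by 0.07 ± 0.20 in PKN2 KO on the log2 scale, and in both genotypes the groups overlapped. With the total count these differences were 0.02 ± 0.08 and -0.13 ± 0.08. The direction in PKN2 KO thus turned with the scaling. The interaction was -0.20 ± 0.29.

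Calls were made with limma across the 238 genes, at a Benjamini-Hochberg adjusted p of 0.05. With TGF-β1, 2 of the 3 members were called in WT, Cd34 lower and Selp higher, where 50.8% of all genes tested were called, 26.9% lower and 23.9% higher. The same 2 members were called in PKN2 KO, where 48.7% of genes were called, 29.0% lower and 19.7% higher. The groups of Cd34 and Selp did not overlap in either genotype, as was the case for 55.9% of the genes in WT and 52.9% in PKN2 KO. For PKN2 KO against WT, 0 of the 3 were called in vehicle, with 13.9% of genes called, and 0 with TGF-β1, with 15.1% of genes called. At an unadjusted p under 0.05 these limma counts were 0 in vehicle and 1 with TGF-β1, Cd164, and edgeR and DESeq2 gave the same counts before and after adjustment. Under each of the other 3 scalings (TMM, median of ratios, total count), Cd164 was called lower in PKN2 KO in vehicle, where they called 13.9%, 16.4% and 18.5% of genes. It was also called with TGF-β1, where they called 23.5%, 23.1% and 27.3%. Cd34 was not called between genotypes under these scalings. With TGF-β1 it had an unadjusted p under 0.05 in limma with TMM and median of ratios, but not with the total count. No member was called for the interaction, with 3.36% of genes called, and 0 of 3 had an unadjusted p under 0.05 with limma, edgeR or DESeq2. The members were chosen with these comparisons known, and their calls are no independent evidence.

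**Figure D3:**
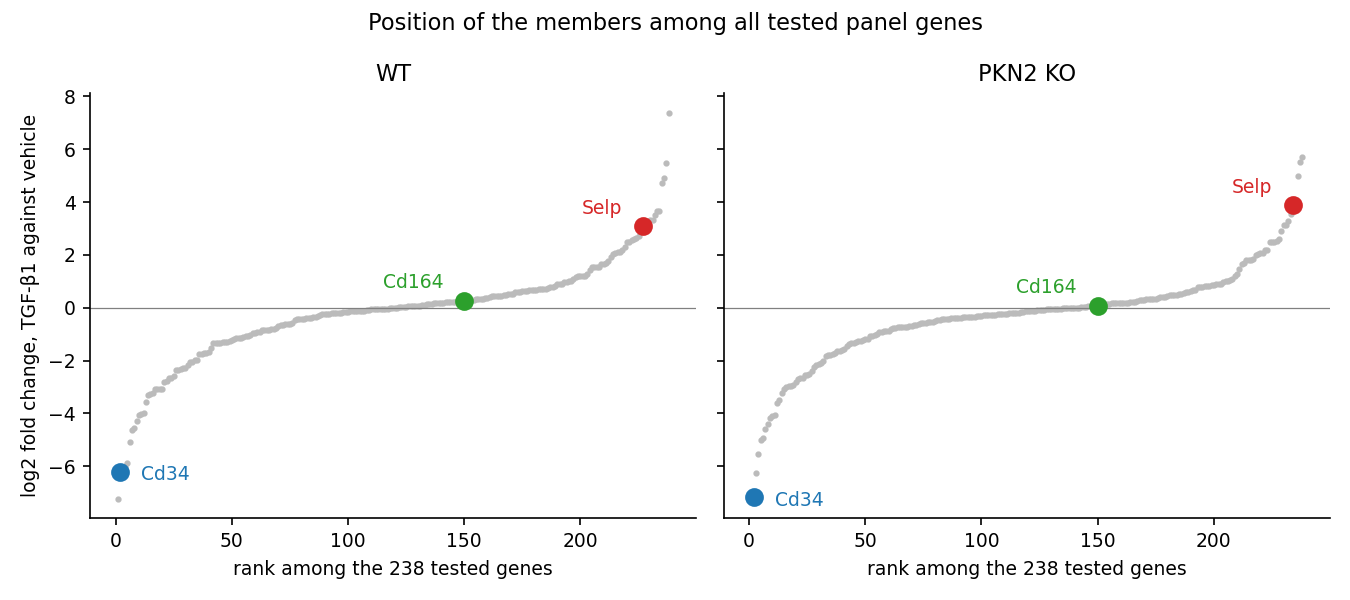
Log2 fold change with TGF-β1 of the 238 genes tested, ranked from lowest to highest in WT (left) and PKN2 KO (right). Grey points are genes and the 3 members are coloured; Cd34 is at rank 2, Cd164 at rank 150 and Selp at rank 227 in WT and 234 in PKN2 KO.

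The panel holds 26 other genes of the same adhesion steps, in 3 lists, of which 9 passed the filter. With TGF-β1, 3 of the 9 rose and 5 fell in both genotypes, and 1 was higher in PKN2 KO than WT in vehicle and 1 with TGF-β1. Over all genes tested the shares called were 50.8% and 48.7% with TGF-β1, and 13.9% and 15.1% between genotypes, so that 1 of 9 is near the share of the panel. No interaction among them passed the test (limma; adjusted p from 0.548 to 0.964). With the replicate letter as a block, where 42 of the 238 genes had an interaction called, those of Itgb3 and Mcam were called (limma adjusted p = 0.00302 and 0.0338).

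Of 8 other selectins and mucin-type ligands, Cd44 alone passed the filter. CD44 is the hyaluronan receptor and, on some cells, a selectin ligand. It rose from 8142 ± 513 to 16200 ± 2357 normalized counts in WT (SD, n = 3), a log2 fold change of 0.98 ± 0.20 (SE; limma adjusted p = 0.000673). The PKN2 KO libraries rose from 8349 ± 635 to 15928 ± 2961 (0.92 ± 0.20; adjusted p = 0.00146). Sele had no read. Selplg, whose product is the main P-selectin ligand, had 6 reads over the 12 libraries. Madcam1 also had 6 reads, and the mucins Muc1, Muc13 and Muc15 had 81, 26 and 30.

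Of 8 adhesion receptors of the immunoglobulin type, 4 passed the filter. With TGF-β1, 1 of them rose and 2 fell in each genotype, with a median log2 fold change of -1.32 in WT beside 0.00 over all genes tested, and of -1.12 beside -0.14 in PKN2 KO. Vcam1, a cytokine-induced receptor for leukocyte integrins, fell from 940 ± 143 to 47.8 ± 10.9 normalized counts in WT (log2 fold change -4.28 ± 0.26, SE; limma adjusted p = 6.83e-09). Its PKN2 KO mean fell from 660 ± 37.1 to 31.6 ± 12.0 (-4.40 ± 0.26; adjusted p = 6.02e-09). Alcam, a homophilic receptor that also binds CD6 on T cells, rose from 500 ± 81.5 to 3311 ± 384 in WT (2.73 ± 0.18; adjusted p = 1.15e-08). The rise in PKN2 KO was from 483 ± 57.1 to 3649 ± 379 (2.92 ± 0.18; adjusted p = 7.79e-09). Icam5, known from neurons, fell at low counts, from 16.7 ± 3.17 to 1.62 ± 1.11 in WT (adjusted p = 0.000261) and from 26.0 ± 7.35 to 7.79 ± 6.33 in PKN2 KO (adjusted p = 0.00848). With TGF-β1, PKN2 KO also had more Icam5 than WT (1.60 ± 0.51; adjusted p = 0.0491), a call lost in 14 of 23 alternatives with adjusted p up to 0.197. Mcam, a receptor of endothelium and pericytes, had no call and a log2 fold change with TGF-β1 of 0.18 ± 0.25 in WT and -0.43 ± 0.25 in PKN2 KO. With TGF-β1, Mcam was called lower in PKN2 KO than in WT in 5 of 24 alternatives, among them the other 3 scalings. Vcam1 was so called in 4 of 24, among them median of ratios, and in vehicle in 1 of 24. For TGF-β1 against vehicle in PKN2 KO, Mcam was called lower in 4 of 24. Icam5 passed the filter through vehicle libraries, with 0.79 to 2.88 normalized counts in WT with TGF-β1. The other 4 genes, Icam1, Icam2, Icam4 and Pecam1, stayed below the filter with 12 to 71 reads in all.

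Of 10 integrin chains of leukocytes and platelets, 4 passed the filter, and with TGF-β1 1 rose and 3 fell in each genotype. The median log2 fold change of these 4 was -1.30 in WT and -1.61 in PKN2 KO, beside 0.00 and -0.14 over all genes tested, of which 23.9% and 19.7% rose and 26.9% and 29.0% fell. Itgb3, which pairs with the αv and αIIb chains, rose from 42.8 ± 24.2 to 472 ± 175 normalized counts in WT (3.50 ± 0.38, SE; limma adjusted p = 1.6e-06). The PKN2 KO mean rose from 95.9 ± 22.5 to 573 ± 207 (2.53 ± 0.38; adjusted p = 5.23e-05). Itga2b, the αIIb chain of the platelet fibrinogen receptor, fell from 64.6 ± 13.2 to 26.7 ± 9.96 in WT (-1.30 ± 0.41; adjusted p = 0.0146). The fall in PKN2 KO was from 85.7 ± 16.3 to 30.7 ± 15.7 (-1.57 ± 0.41; adjusted p = 0.00516). Itgb7, the β chain of a lymphocyte homing receptor, fell from 238 ± 56.8 to 46.7 ± 7.22 in WT (adjusted p = 1.51e-05) and from 280 ± 92.1 to 60.9 ± 17.1 in PKN2 KO (adjusted p = 3.61e-05). Itgb2, the shared β chain of leukocyte integrins, fell from 19.1 ± 3.43 to 7.18 ± 1.98 in WT (adjusted p = 0.0116) and from 21.5 ± 8.01 to 6.10 ± 2.19 in PKN2 KO (adjusted p = 0.00291). Itgb2 was below 10 in every library with TGF-β1 and so passed the filter through vehicle libraries only. In vehicle, PKN2 KO had more Itgb3 than WT (1.25 ± 0.38; adjusted p = 0.0378), a call lost in 11 of 24 alternatives with adjusted p up to 0.166. The call of Itga2b in WT was lost without WT vehicle library B or WT TGF-β1 library A (adjusted p up to 0.0686). The chains Itgal and Itga4, which pair with Itgb2 and Itgb7, had no read, and Itgam and Itgax had 2 reads each.

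**Figure D4:**
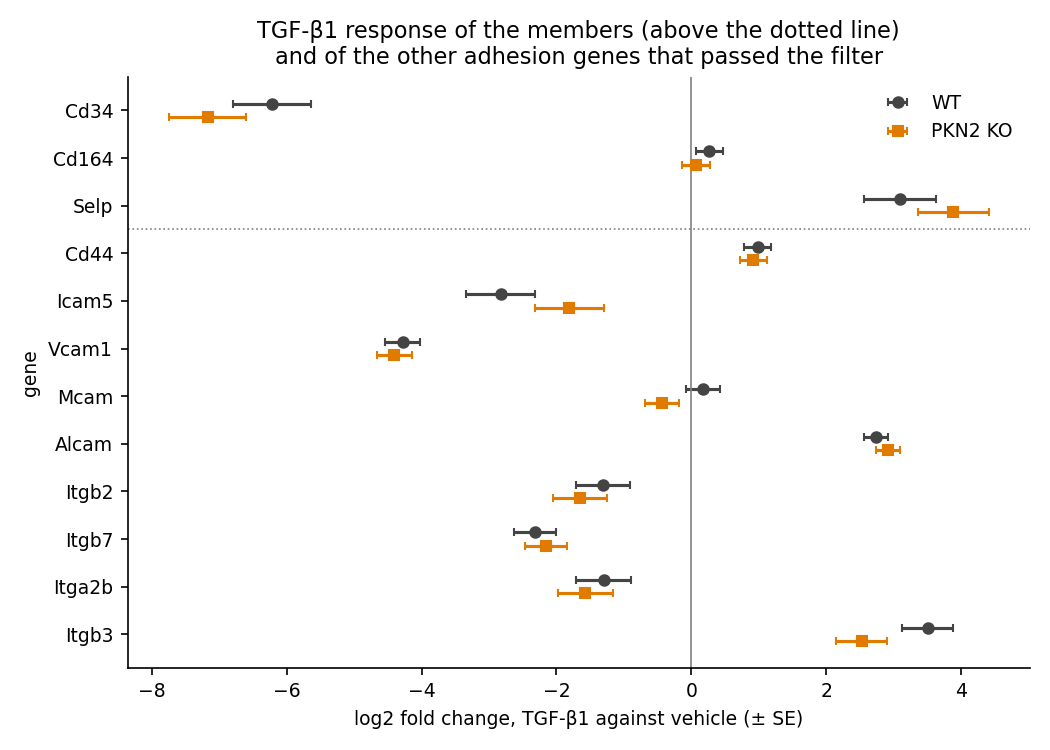
Log2 fold change with TGF-β1 (± SE) in WT (circles) and PKN2 KO (squares) for the 3 members, above the dotted line, and for the 9 other adhesion genes that passed the filter. Cd34 and Vcam1 lie farthest to the left, and Selp, Itgb3 and Alcam farthest to the right.

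The genes whose levels most resembled those of each member were ranked by Pearson's r of log2(normalized count + 1) over the 12 libraries. The libraries fall into vehicle and TGF-β1 groups, so that for Cd34 and Selp a high r mostly restates that split. For Cd34 they were Itga3, an integrin chain for laminins (0.98), Efemp1 (0.98) and Lgals9, a galectin (0.97). Efemp1 fell from a mean of 5459 to 36.0 normalized counts in WT, and from 3081 to 19.5 in PKN2 KO. For Selp they were Alcam (0.98), Tnc, the matrix protein tenascin C (0.98), and Plod2, a collagen lysyl hydroxylase (0.98). Tnc rose from a mean of 1099 to 10079 in WT and from 913 to 8905 in PKN2 KO. For Cd164 they were Loxl2, a collagen cross-linking oxidase (0.89), Maea, an erythroblast attachment protein (0.87), and Cdh2, or N-cadherin (0.82). The means of Loxl2 were 551 in WT and 468 in PKN2 KO in vehicle, and 842 and 327 with TGF-β1. Between the members themselves, r was -0.93 for Cd34 with Selp, -0.17 for Cd34 with Cd164 and 0.36 for Cd164 with Selp.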

How the data were processed

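RNA of 12 PSC libraries was profiled with a QIAseq targeted panel. The submitters' processing notes name mm10, STAR and DESeq2 1.32. Raw counts, deposited by the authors, came with 2 tables of normalized counts, a signal for which the authors scaled every library with a factor from pre-determined reference genes. By the methods, a QIAGEN pipeline gave the reads of each gene. All 12 libraries were taken from the normalized tables, since 6 raw columns do not name a single library and were not used. Each normalized value was a whole multiple of 1 step per library (100% of 5040 values, tolerance 0.01), and dividing by that step gave the deposited counts for 2520 of 2520 values in the other 6 raw columns. Sequences and coordinates come from RefSeq and GENCODE on GRCm38, the build also called mm10, and all 420 symbols matched.

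limma 3.58.1 (trend and robust estimation, R 4.3.3) was run on log2(normalized count + 1) for the 238 genes with at least 10 in at least 3 libraries, with 1 mean per group and Benjamini-Hochberg adjustment. It was tested on simulated data. Alternatives were TMM, median of ratios and total count scaling, pseudocounts of 0.5 and 5, no filter or at least 10 in every library, edgeR 4.0.16, DESeq2 1.42.0, no variance trend, the replicate letter as a block, and each library left out. The genes named are the 3 members, every gene of 3 adhesion lists that passed the filter and the 3 genes most like each member; others were named after their values were seen. A gene of these lists is not reported here. The members and lists were chosen with earlier results of these data known. Intervals are exact (95%), floors are 3 reads per library, and both cover counting error only.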

Additional observations from a re-analysis of the deposited data

How the results depend on the processing

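Of 350 values of the members under the alternatives, 329 moved by less than the spread between libraries and 21 by more. A pseudocount of 5 brought the TGF-β1 log2 fold change of Cd34 in PKN2 KO to -5.94 and that of Selp to 1.57 in WT and 1.91 in PKN2 KO, and a pseudocount of 0.5 brought Selp to 3.78 and 4.83. By construction edgeR and DESeq2 use other prior counts, and for Selp they gave 4.04 and 4.26 for TGF-β1 in WT, 6.84 and 6.29 in PKN2 KO, 2.81 and 2.03 for the interaction and -2.60 and -1.82 for PKN2 KO against WT in vehicle. Cd164 was at -0.53 for PKN2 KO against WT in vehicle with median of ratios scaling, and at 0.016 for TGF-β1 in WT with the total count. Total count scaling moved the median of all genes with TGF-β1 to -0.25 in WT and -0.34 in PKN2 KO, from 0.00 and -0.14. With at least 10 in every library, Cd34 and Selp were not tested.

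Genes called for PKN2 KO against WT with TGF-β1 went from 36 to 56, 55 and 65 with TMM, median of ratios and total count scaling, and interactions from 8 to 4 with no trend; the cause was not tested. With the replicate block the calls were 87 in vehicle, 101 with TGF-β1 and 42 interactions, and 71, 90 and 17 with the replicate block and no trend, against 33, 36 and 8 without the block. The block called Cd164 lower in PKN2 KO in both treatments and higher with TGF-β1 in WT; with no trend the vehicle call was lost. Within each letter Cd164 was lower in PKN2 KO, by log2 differences of -0.36 to -0.24 in vehicle and -0.53 to -0.45 with TGF-β1. Same-lettered libraries had correlations of deviations from -0.23 to 0.70 (mean 0.39, 18 pairs). In normalized counts a single read weighed least in library B of every group. For some genes of this panel the study's legend names a ratio paired t-test. What a letter stands for is not stated, and the main fit did not pair the libraries. Its SEs thus include any effect that same-lettered libraries share, and such an effect was not tested.

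Leaving out 1 library at a time in 12 fits gave 17 to 38 genes called for PKN2 KO against WT in vehicle and 0 to 11 interactions. Interactions were 0 without PKN2 KO vehicle library B and without WT TGF-β1 library C, where 21 and 16 genes had an unadjusted p under 0.05 in limma. The log2 differences of Cd34 ran from -1.80 to -0.32 for PKN2 KO against WT with TGF-β1, from -7.76 to -6.28 for TGF-β1 in PKN2 KO and from -1.54 to -0.057 for the interaction, with both ends set by PKN2 KO TGF-β1 libraries A and C. Those of Selp ran from -0.87 to 0 for PKN2 KO against WT in vehicle, from 2.80 to 3.68 for TGF-β1 in WT and from 0.20 to 1.08 for the interaction, and WT vehicle library A, which holds both Selp reads of its group, decided 1 end of each.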

Other observations

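Selp was 1 of 3 panel genes with at most 3 reads in each of the 6 vehicle libraries and at least 10 reads in each of the 6 libraries with TGF-β1, limits that were chosen after the values were seen. The others were Mmp9, a gelatinase that cleaves basement membrane collagen, with 0 to 2 reads in vehicle and 16 to 241 with TGF-β1, and Lamb3, a laminin β chain of epithelial basement membrane, with 0 to 3 and 15 to 28.

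In the opposite direction, Cd34 was 1 of 2 genes with at least 100 reads in every vehicle library and at most 10 in every library with TGF-β1. The other was Itga11, a collagen-binding integrin chain of fibroblasts, with 108 to 221 reads in vehicle and 0 to 9 with TGF-β1. Cd34 had 358 to 886 reads in vehicle and 0 to 9 with TGF-β1. The limits of 100 and 10 reads were likewise chosen after the values were seen. Efemp1, ranked below Cd34 in log2 fold change in both genotypes but by less than the SE in PKN2 KO, did not meet them.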
